A study of Mus musculus with 2 samples.

Results

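The genes Rgs1, Rgs2, Rgs16, Crem and Pde4b regulate heterotrimeric G protein and cyclic AMP (cAMP) signalling. They are 5 of the 27998 gene rows of 2 single-cell count tables, taken as rows of the RGS family and of the cAMP response. The 5 were chosen by measured values, since they were proposed with the levels and KO over WT differences of these tables already known. Those levels and differences are therefore a description. The tables hold natural killer (NK) cells that had infiltrated subcutaneous tumors of RMA-S, a mouse lymphoma line that displays little MHC class I. The tumors had grown for 2 weeks, and NK1.1-positive, CD3ε-negative cells were sorted for 10x Chromium 3′ libraries. The KO library came from mice with a knockout of Hif1a in NK cells (NK-Hif1a-/-), which lack the oxygen-regulated subunit of hypoxia-inducible factor 1 in these cells. The WT library came from wild-type mice with the same tumor. The labels name no promoter or Cre line behind the knockout, no strain, age or sex, and no number of mice or tumors per library. With 1 library per genotype, every difference given here describes these 2 libraries, without a replicate check and without a test.

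RGS proteins speed up GTP hydrolysis by G protein alpha subunits and so shorten the signal of G protein-coupled receptors, among them the chemokine receptors that guide lymphocytes. Receptors that couple to Gs, such as those for adenosine, prostaglandin E2 and adrenaline, raise cAMP, which activates protein kinase A and through it transcription factors of the CREB family. In NK cells cAMP is known to restrain cytotoxicity. Feedback of different kinds acts on this pathway in many cells, since PDE4B hydrolyses cAMP and Crem encodes cAMP-responsive modulators that include a short, cAMP-induced repressor named ICER. Tags at the 3′ end of a transcript count Crem as a whole and do not separate ICER from the longer forms.

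The KO table held 3110 barcodes with 13407906 unique molecular identifiers (UMIs), while 3574 barcodes with 19553440 UMIs made up that of the WT library. After removal of barcodes with under 500 detected genes or over 10% mitochondrial UMIs, 3067 KO and 3555 WT cells remained, and 19 barcode sequences occurred in both libraries. Clusters outside a T-like cluster and a small cluster led by Cd74 and Tmem176b formed the NK-like class, with 2912 KO cells (median 3742 UMIs) and 3374 WT cells (median 4433 UMIs). The 10 NK markers, none of them at 0, summed to 24390 CPM (counts per 1e6 UMIs of the class) in KO and 24041 CPM in WT NK-like cells. The 10 T cell markers summed to 216 CPM in KO and 224 CPM in WT cells, with Cd8a at 0 in both and Cd4 at 0 in WT cells. The 12 myeloid markers summed to 90.1 CPM in KO cells, with none at 0, and to 17.6 CPM in WT cells, with Adgre1 and Fcgr1 at 0. The 9 ILC (innate lymphoid cell) markers summed to 611 CPM in KO and 436 CPM in WT cells. The 6 erythroid markers summed to 298 CPM in KO and 545 CPM in WT cells, and the lists for B cells, basophils and mast cells, and stroma each summed to 62.3 CPM or less in KO and 56.6 CPM or less in WT cells. The part of these other markers in the differences below was not tested. Hif1a itself had 747 UMIs in KO and 1077 UMIs in WT NK-like cells, 61.1 and 58.2 CPM, a log2 ratio of 0.07 (-0.07 to 0.21). The labels do not give the deleted part of the gene, so a 3′ tag checks nothing about the deletion.

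In NK-like cells, 4 of the 5 genes stood higher in the KO library and Rgs16 stood lower. Crem had 9019 UMIs in KO and 5484 UMIs in WT NK-like cells, that is 738 CPM against 296 CPM, a log2 ratio of KO over WT of 1.31 (95% counting interval 1.27 to 1.37). Pde4b had 1078 UMIs in KO and 969 UMIs in WT cells, 88.2 CPM against 52.3 CPM, a log2 ratio of 0.74 (0.63 to 0.88). Both regulators of the cAMP branch were thus past 1.5-fold in the same direction. Rgs2, whose product acts mainly on Gq, had 7775 UMIs in KO and 8054 UMIs in WT cells, 636 CPM against 435 CPM, a log2 ratio of 0.55 (0.50 to 0.59). Rgs1, whose product damps Gi-coupled chemokine receptors in lymphocytes, had 16191 UMIs in KO and 19405 UMIs in WT cells, 1324 CPM against 1048 CPM, a log2 ratio of 0.34 (0.31 to 0.37). Rgs16, whose product acts on Gi and Gq, had 788 UMIs in KO and 2284 UMIs in WT cells, 64.5 CPM against 123 CPM, a log2 ratio of -0.93 (-1.05 to -0.82). The RGS genes thus did not share a direction. At 1.5-fold, Crem and Pde4b were higher (2 of 5) and Rgs16 was lower (1 of 5), and the median of the 5 log2 ratios was 0.55. Over all 10377 genes that reached 50 UMIs, 7.03% passed 1.5-fold upward and 4.41% passed it downward in KO cells, with a median log2 ratio of 0.044. At 2-fold Crem alone was higher (1 of 5) and none was lower, against 1.83% of all genes upward and 1.39% downward. Among the 8023 genes with at least 200 UMIs, 54 had a higher ratio than Crem and 97 a lower ratio than Rgs16. All intervals in parentheses are 95% intervals that cover counting error only, and those of this paragraph are exact.

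**Figure D1:**
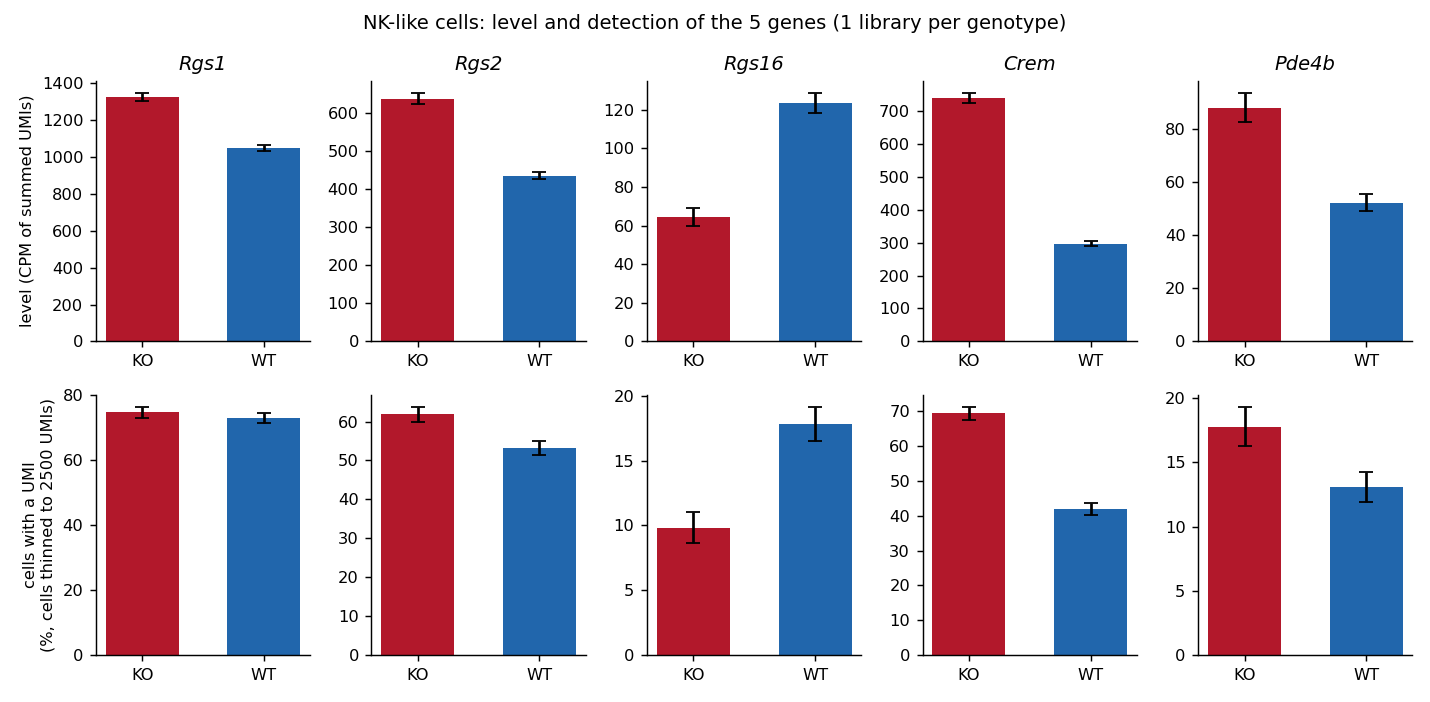
Level (CPM of summed UMIs, top) and share of cells with a UMI (%, cells thinned to 2500 UMIs, bottom) of the 5 genes in KO and WT NK-like cells. Bars are values of 1 library each with exact 95% counting intervals, and Crem shows the widest gap, at 69.5% of KO against 41.9% of WT cells.

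The 3 RGS genes lie on chromosome 1 on the GRCm38 (mm10) assembly with GENCODE M21. Rgs2 (143999338 to 144004161, minus strand) and Rgs1 (144242296 to 144249242, minus strand) belong to a run of neighbouring RGS genes on that strand, with Rgs13 between them and Rgs21 and Rgs18 after Rgs1. Rgs13 and Rgs21 had 0 UMIs in both libraries, which allows up to 0.245 CPM in KO and 0.162 CPM in WT NK-like cells, taking 3 counts as the limit. Rgs18 had 127 KO and 116 WT UMIs, 10.4 CPM against 6.26 CPM, a log2 ratio of 0.65 (0.36 to 1.11). The measured members of this run, Rgs2, Rgs1 and Rgs18, stood higher in the KO library. Rgs2 and Rgs1 were chosen with their differences known, and the median log2 ratio over all genes was 0.044. With the weighting by cell state given below, the ratios were -0.03 for Rgs1 and -0.06 for Rgs2. These values describe single genes and are no result about the run. Rgs16 lies elsewhere on the chromosome (153740349 to 153745468, plus strand), next to Rgs8, which had 6 KO and 17 WT UMIs. Pde4b spans chromosome 4 from 102087543 to 102607259 on the plus strand. The opposite-strand gene model Gm28513 (4 KO and 5 WT UMIs) overlaps Rgs16, and whether the counting used strand is not stated in the sources at hand.

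RefSeq promoter windows of the 250 bases before the start (GRCm38.p6) were matched for 3 of the 5 genes, Rgs2, Rgs16 and Pde4b. They are shown because the cAMP response element (CRE) bound by CREB and CREM proteins is the palindrome TGACGTCA, of which TGACG is the core. Whether the core goes with the direction of a gene in KO cells was not tested. Capitals mark the core TGACG, or CGTCA where it reads on the other strand, and all 3 sequences run 5′ to 3′ along the gene's own strand.
Rgs2, chr1:144004150-144004399, minus strand: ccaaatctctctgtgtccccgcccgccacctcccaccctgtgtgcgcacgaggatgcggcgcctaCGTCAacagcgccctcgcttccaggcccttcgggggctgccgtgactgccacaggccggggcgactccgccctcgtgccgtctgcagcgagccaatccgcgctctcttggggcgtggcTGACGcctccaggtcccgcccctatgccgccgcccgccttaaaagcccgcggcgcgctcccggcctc
Pde4b, chr4:102421305-102421554, plus strand: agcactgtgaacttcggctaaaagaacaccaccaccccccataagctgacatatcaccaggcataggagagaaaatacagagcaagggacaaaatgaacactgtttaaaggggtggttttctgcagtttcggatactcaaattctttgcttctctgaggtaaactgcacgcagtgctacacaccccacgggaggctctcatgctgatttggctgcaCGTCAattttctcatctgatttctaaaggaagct
Rgs16, chr1:153740103-153740352, plus strand: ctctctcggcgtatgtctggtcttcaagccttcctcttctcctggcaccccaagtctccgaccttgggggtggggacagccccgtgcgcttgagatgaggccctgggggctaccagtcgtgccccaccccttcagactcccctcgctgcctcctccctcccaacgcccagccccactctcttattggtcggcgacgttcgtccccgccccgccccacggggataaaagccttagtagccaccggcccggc

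The Rgs2 window held 2 cores, the first base of each at -185 and -67 from the start. The Pde4b window held 1, at -34, and the other 3 RefSeq windows of Pde4b held 0. The Pde4b window shown is thus the only one of that gene with a core. It lies inside the gene, whose span begins at 102087543, so -34 is counted from a start within the gene. The Rgs16 window held 0. On both strands, the core occurred in 17.8% of all 32851 promoter windows of this length, and the full palindrome, which none of these windows held, in 1.55%. At least 1 window with the core was found for 19.8% of 27025 genes, and a gene with several windows can match more often. ACGTG, the core of the hypoxia response element, occurred in 16.6% of all windows, and among those shown only in that of Pde4b, where it overlaps the CRE core. The AP-1 site TGANTCA (6.75% of all windows) and the NF-kB site (1.41%) were found in none of them. A match describes the letters of a window and is not a binding site.

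Detection per cell followed the levels for Crem, Rgs16, Rgs2 and Pde4b, and at 2500 UMIs per cell differed little for Rgs1. Cells were thinned to 2500 UMIs to compare libraries of different depth, which kept 2509 KO and 3284 WT NK-like cells and left out 403 KO and 90 WT cells as too shallow. Crem was detected in 69.5% of KO and 41.9% of WT cells, a difference of 27.6 percentage points (25.1 to 30.04). Rgs2 was detected in 61.9% of KO and 53.2% of WT cells, a difference of 8.63 points (6.04 to 11.2). Pde4b was detected in 17.8% of KO and 13.1% of WT cells, a difference of 4.71 points (2.81 to 6.64). Rgs16 was detected in 9.80% of KO and 17.8% of WT cells, a difference of -7.98 points (-9.74 to -6.19). Rgs1 was detected in 74.7% of KO and 72.9% of WT cells, a difference of 1.72 points whose interval (-0.59 to 4.02) includes 0. Its higher level in KO cells therefore went with more UMIs in the cells that had any, 4.603 in KO against 3.69 in WT cells on average.

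Without thinning the shares were 83.4% of KO and 83.6% of WT cells for Rgs1, 70.9% and 68.9% for Rgs2, 12.98% and 26.6% for Rgs16, 76.4% and 57.8% for Crem, and 26.4% and 23.4% for Pde4b. Barcodes with over 20% hemoglobin UMIs numbered 34 in the KO library (median 4920 UMIs) and 21 in the WT library (median 4791 UMIs). They served as a rough measure of RNA that reaches barcodes of cells not expected to express these genes. They were taken from all barcodes, kept cells included. The filter removed 17 WT barcodes for few genes and 2 for mitochondrial UMIs, so some of the 21 were also kept cells. The measure is therefore not free of kept cells. Among them Rgs1 had a UMI in 7 KO barcodes (20.6%) and 10 WT barcodes (47.6%), Rgs2 in 6 (17.6%) and 3 (14.3%), and Crem in 4 (11.8%) and 3 (14.3%). All 3 genes were detected in a larger share of NK-like cells of the same library. Rgs16 had a UMI in 0 of 34 such KO barcodes, which allows up to 8.82%, and in 3 of 21 WT barcodes (14.3%, 3.05% to 36.3%). That last interval includes the 26.6% of WT NK-like cells, although the Rgs16 level was 27.3 CPM in the WT hemoglobin barcodes against 123 CPM in WT NK-like cells. Pde4b had a UMI in 2 KO barcodes (5.88%) and in 0 of 21 WT barcodes, which allows up to 14.3%.

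The UMIs of the 5 genes were spread unevenly over cells. The top 10% of NK-like cells held 89.0% of Rgs16 UMIs in KO cells and 71.1% in WT cells, and 10 cells alone held 14.3% and 9.33%. One cell reached 17 Rgs16 UMIs in the KO library and one 50 in the WT library. Most cells of both libraries thus had no Rgs16 UMI. For Crem the top 10% of cells held 35.9% of KO and 44.2% of WT UMIs, and 184 KO and 54 WT cells had 10 or more UMIs. For Rgs1 the top 10% held 43.2% of KO and 43.4% of WT UMIs, with single cells up to 87 and 155 UMIs. At 2500 UMIs per cell, the variance of Rgs1 UMIs over their mean was 6.28 in KO cells, at a mean of 3.44 UMIs, and 4.602 in WT cells, at a mean of 2.69 UMIs. At equal depth Rgs1 UMIs thus had a higher variance relative to their mean in KO cells, where the mean was higher too.

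NK-like cells fell into 7 sub-clusters, drawn without the 5 genes among the variable genes. Sub-cluster 0 (522 KO and 1238 WT cells) was led by Hspa1a, Hspa1b, Fos, Jun and Dnajb1. Sub-cluster 1 (392 KO and 847 WT cells) was led by Emb, Ndrg1, Ccr7, Cd27 and Tcf7. Sub-cluster 2 (1030 KO and 107 WT cells) was led by Ier5l, Vegfa, Cxcr4, Fosl2 and Ifrd1, and sub-cluster 3 (657 KO and 105 WT cells) by Gadd45b, Ccl4, Csrnp1, Icam1 and Nr4a1. Sub-cluster 4 (83 KO and 610 WT cells) was led by Gpx8, Itgb2, Klrg1, Ccl5 and Ccl9. Sub-cluster 5 (200 KO and 330 WT cells) was led by Cd74, Ccdc184, Tmem176b, Tmem176a and Ltb, and sub-cluster 6 (28 KO and 137 WT cells) by Gzmg, Gzmd, Gzmf, Gzme and Hist1h2ap. Among the top 10 genes of sub-cluster 5 were 3 ILC markers (Tmem176b, Tmem176a and Il7r), so it is named by its number and not by a cell type. No NK marker was among them, but of the other 6 sub-clusters only sub-cluster 4 had one. The ILC markers of sub-cluster 5 summed to 1070 CPM in KO and 642 CPM in WT cells. In the other 6 sub-clusters they summed to 295 to 631 CPM in KO and 251 to 596 CPM in WT cells. The NK markers of sub-cluster 5 summed to 18649 CPM in KO and 15655 CPM in WT cells. In the other 6 they summed to 18713 to 37350 CPM in KO and 16124 to 34014 CPM in WT cells. Without sub-cluster 5, which left 2712 KO and 3044 WT cells, the log2 ratios of the class were 0.34 for Rgs1, 0.54 for Rgs2, -0.86 for Rgs16, 1.30 for Crem and 0.75 for Pde4b. Sub-clusters 2 and 3 were mostly KO and sub-cluster 4 mostly WT, so with 1 library per genotype a state and a library cannot be told apart there. The sizes serve only to describe what lies behind each sum.

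Crem lies on the minus strand of chromosome 18, from 3266048 to 3337748, where the opposite-strand gene model Gm6225 (10 KO and 8 WT UMIs) overlaps it. It had its highest level in sub-cluster 2 in both libraries, at 1173 CPM (1142 to 1205) in KO and 875 CPM (797 to 958) in WT cells, apart from the next cluster beyond counting error. Its lowest level was in sub-cluster 5 in both, at 170 CPM in KO and 124 CPM in WT cells, close to sub-clusters 6 and 0, whose intervals overlap in turn. The top and the bottom of the order were therefore alike, with a 6.92-fold range in KO and a 7.04-fold range in WT cells. Within each of the 7 sub-clusters Crem was higher in KO cells, with log2 ratios between 0.21 (0.09 to 0.32) in sub-cluster 1 and 0.82 (0.65 to 1.003) in sub-cluster 0. All 7 lay below the 1.31 of the whole class. Sub-cluster 2 supplied 57.9% of the Crem UMIs and 36.4% of all UMIs of the KO class, against 8.52% and 2.88% in the WT class, where sub-cluster 1 supplied the most Crem UMIs (40.3%).

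Pde4b levels ranged less between states, with sub-cluster 3 highest at 126 CPM in KO and 94.3 CPM in WT cells, and sub-cluster 6 lowest at 43.7 CPM in KO and 34.1 CPM in WT cells. Neighbours in this order overlapped in their counting intervals throughout. Pde4b was higher in KO cells of all 7 sub-clusters, by log2 ratios of 0.25 to 0.66, but only in sub-clusters 1 (0.66, 0.36 to 0.98) and 2 (0.64, 0.12 to 1.23) did the interval leave out 0. Other resolutions did not keep this sign throughout. Among sub-clusters with at least 50 cells of each library, Pde4b was higher in KO cells in 3 of 4 at resolution 0.4 (lowest ratio -0.01) and in 8 of 9 at resolution 1.0 (lowest -0.04), whereas Crem was higher in 4 of 4 and 9 of 9. The depth of Pde4b, with 15 to 406 UMIs per sub-cluster and library, limits what can be seen within states.

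**Figure D2:**
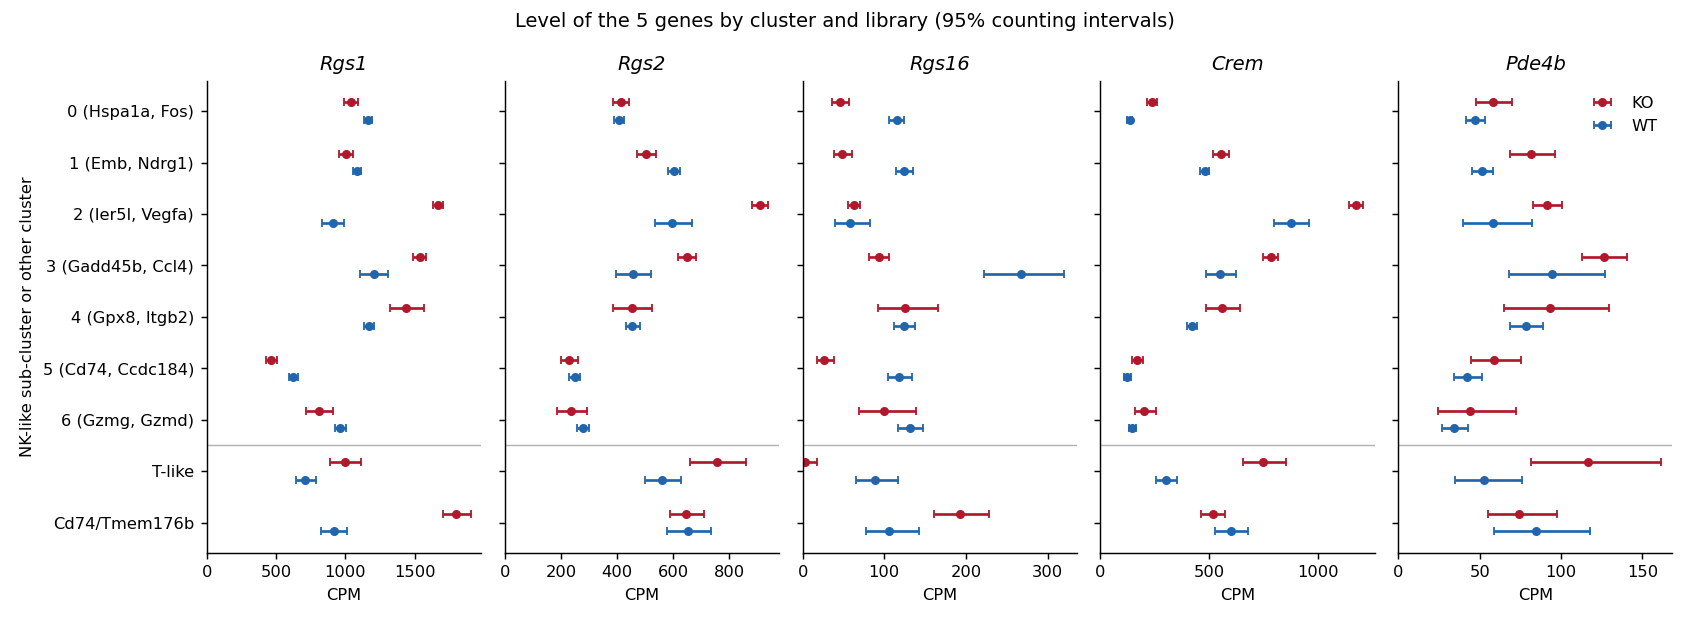
Level (CPM) of the 5 genes in each NK-like sub-cluster and in the T-like and Cd74/Tmem176b clusters, for KO and WT cells. Points are sums over the cells of 1 library with exact 95% Poisson intervals, and Crem is highest in sub-cluster 2 of both libraries, at 1173 CPM in KO and 875 CPM in WT cells.

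The ratios of Rgs1 and Rgs2 depended on the state. Rgs1 stood at 1668 CPM in KO and 908 CPM in WT cells of sub-cluster 2, a log2 ratio of 0.88 (0.74 to 1.01), and was also higher in KO cells of sub-clusters 3 (0.35, 0.22 to 0.48) and 4 (0.30, 0.16 to 0.43). In sub-cluster 5 it stood at 466 CPM in KO and 626 CPM in WT cells, a ratio of -0.42 (-0.58 to -0.27), and it was lower in KO cells of sub-clusters 0 (-0.16), 1 (-0.11) and 6 (-0.25). The Rgs1 difference thus had both directions among the sub-clusters, each beyond counting error, also with sub-cluster 5 and its ILC markers set aside. The part of these markers in the ratios of sub-cluster 5 was not tested. The Rgs1 range between the 9 clusters was 3.86-fold in KO and 1.93-fold in WT cells. Rgs2 had its top KO level in sub-cluster 2, at 910 CPM, against 597 CPM in WT cells, a log2 ratio of 0.61 (0.44 to 0.78), and sub-cluster 3 had 0.50 (0.30 to 0.72). In sub-cluster 1 Rgs2 stood at 503 CPM in KO and 603 CPM in WT cells, a ratio of -0.26 (-0.37 to -0.15). In sub-clusters 0, 4, 5 and 6 the Rgs2 intervals included 0. The higher Rgs2 ratios thus lay in the sub-clusters that were mostly KO cells. Whether ratios differ between states beyond the spread between mice was not tested.

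Rgs16 was lower in KO cells of sub-clusters 0, 1, 3 and 5 by log2 ratios of -1.31 (-1.67 to -0.996), -1.34 (-1.71 to -1.02), -1.51 (-1.84 to -1.19) and -2.11 (-2.77 to -1.57). In sub-cluster 3, the top WT state, its level was 93.3 CPM in KO and 268 CPM in WT cells. In sub-cluster 5, the one with ILC markers, it was 26.8 CPM in KO and 119 CPM in WT cells. Sub-clusters 2 (62.5 CPM in KO and 58.1 CPM in WT cells, 31 WT UMIs) and 4 (125 CPM in KO and 124 CPM in WT cells) had ratios of 0.10 (-0.43 to 0.69) and 0.01 (-0.46 to 0.46), and sub-cluster 6 had -0.41 (-0.97 to 0.10). Rgs16 thus had no KO sub-cluster above the WT level beyond counting error. In WT cells 6 of the 7 sub-clusters lay between 115 and 268 CPM, and sub-cluster 2, where Crem was highest, had the lowest WT level of Rgs16.

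When each KO sub-cluster was given the weight it has in the WT class, the log2 ratio was 0.41 (0.34 to 0.48) for Crem, 0.42 (0.24 to 0.60) for Pde4b and -0.92 (-1.11 to -0.73) for Rgs16. For Rgs1 it was -0.03 (-0.08 to 0.01) and for Rgs2 -0.06 (-0.13 to 0.01), both intervals including 0. Rgs16 therefore kept its ratio under this weighting, Crem and Pde4b kept part of theirs, and Rgs1 and Rgs2 lost theirs. At the finer sub-cluster resolution of 1.0 the sign of both small values turned, to 0.040 for Rgs1 and 0.028 for Rgs2. A change in the number of cells of a state and a change of state in the same cells cannot be told apart by this weighting.

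**Figure D3:**
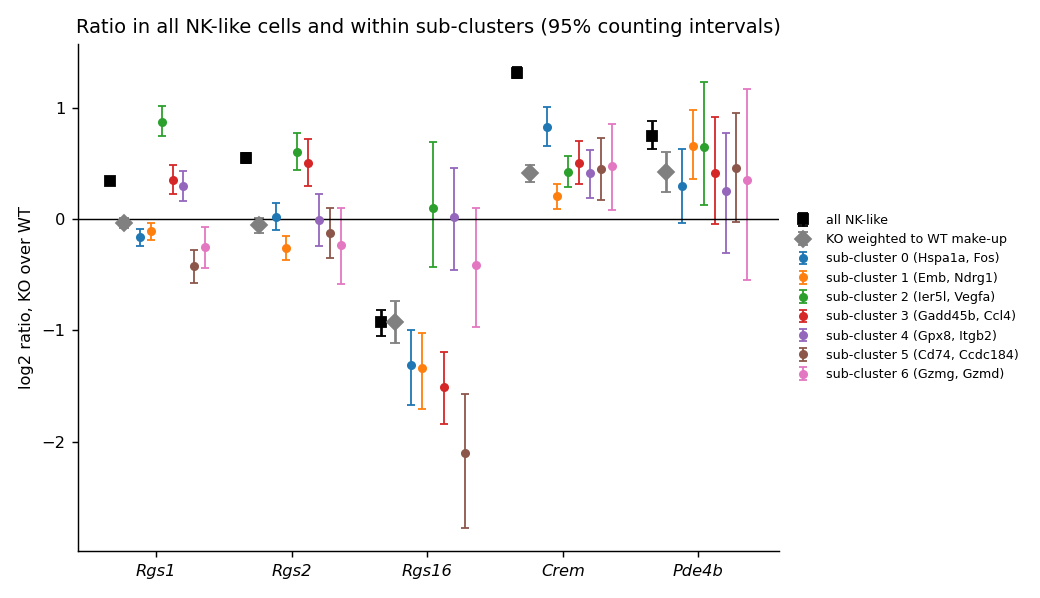
Log2 ratio of KO over WT for the 5 genes in all NK-like cells (squares), with KO sub-clusters at their WT weights (diamonds), and within each sub-cluster (circles), with 95% counting intervals. Crem and Pde4b points lie above 0 in all 7 sub-clusters at this resolution, and Rgs1 points lie from -0.42 to 0.88.

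Outside the NK-like class, the T-like cluster (73 KO and 111 WT cells) had a Crem level of 749 CPM in KO and 301 CPM in WT cells, a log2 ratio of 1.31 (1.02 to 1.62). Pde4b stood at 117 CPM in KO and 52.6 CPM in WT cells there, a ratio of 1.13 (0.40 to 1.92). Rgs16 had 1 UMI in KO and 47 UMIs in WT T-like cells, a ratio of -4.40 (-10.1 to -2.22). The 3 genes thus went the same way in this cluster as in NK-like cells. Rgs1 (996 CPM in KO and 710 CPM in WT cells) and Rgs2 (756 CPM in KO and 562 CPM in WT cells) had ratios of 0.49 and 0.43. The 10 T cell markers summed to 2066 CPM in KO cells, with Cd4 at 0, and to 2513 CPM in WT cells, with Cd8a and Cd4 at 0. The 10 NK markers summed to more in this cluster, 5821 CPM in KO and 6395 CPM in WT cells, so T-like is a label and not a cell type. The 6 erythroid markers summed to 357 CPM in KO and 12347 CPM in WT T-like cells. The 5 B cell markers summed to 259 CPM in KO T-like cells and to 5.64 CPM in WT T-like cells. The part of the erythroid and B cell markers in these values was not tested. In the cluster led by Cd74 and Tmem176b (82 KO and 70 WT cells), the 10 NK markers summed to 21306 CPM in KO and 7440 CPM in WT cells, of which the granzyme gene Gzma alone made up 13287 CPM in KO and 1185 CPM in WT cells. Different cells and a different Gzma level in the same cells cannot be told apart there. Its levels were 1800 CPM in KO and 915 CPM in WT cells for Rgs1, 647 and 652 CPM for Rgs2, 193 and 106 CPM for Rgs16, 516 and 599 CPM for Crem, and 74.0 and 84.5 CPM for Pde4b. Rgs16 was thus higher in KO cells of this cluster (log2 ratio 0.85, 0.36 to 1.39), opposite to NK-like and T-like cells. Crem (-0.21, -0.45 to 0.03) and Pde4b (-0.19, -0.84 to 0.47) were below 0, with intervals that included 0. Rgs1 had a ratio of 0.98 (0.81 to 1.15) and Rgs2 of -0.01 (-0.23 to 0.21).

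Levels were also set against the number of 7 immediate early and NF-kB markers (Nr4a1, Nfkbiz, Nfkbid, Csrnp1, Gadd45b, Tnfaip3 and Icam1) detected in the same thinned cell. Cells with 4 to 7 of them made up 57.2% of KO NK-like cells against 11.8% of WT NK-like cells, and cells with 0 made up 5.06% and 21.6%. The Crem level of KO cells was 274, 379, 503, 719 and 983 CPM with 0, 1, 2, 3 and 4 to 7 markers, and that of WT cells 184, 270, 351, 400 and 441 CPM. Crem thus increased with the number of markers in both libraries and was higher in KO cells at each number. Rgs16 of KO cells was 34.6, 29.5, 49.1, 51.6 and 76.4 CPM, and of WT cells 99.7, 101, 134, 152 and 153 CPM. Rgs16 was thus lower in KO cells at each number, with intervals that did not overlap.

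For Rgs1 the lines of the libraries crossed. Rgs1 of KO cells was 504, 804, 1119, 1274 and 1655 CPM at the 5 steps, and of WT cells 801, 1083, 1223, 1166 and 1161 CPM, so that it was lower in KO cells with 0 or 1 marker and higher with 4 to 7, with intervals that overlapped at 2 and 3. Rgs2 of KO cells was 321, 349, 574, 647 and 771 CPM, and of WT cells 316, 421, 558, 531 and 526 CPM. In WT cells both genes levelled off after 2 markers. Pde4b of KO cells was 34.6, 60.3, 71.7, 86.8 and 104 CPM, and of WT cells 44.5, 50, 65.04, 77.4 and 60.8 CPM, with intervals that overlapped up to 3 markers. With thinned KO cells weighted to the WT distribution of these marker numbers, the log2 ratio was 0.70 for Crem, 0.20 for Pde4b, 0.08 for Rgs2, -0.14 for Rgs1 and -1.45 for Rgs16. This weighting was chosen after the data were seen.

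**Figure D4:**
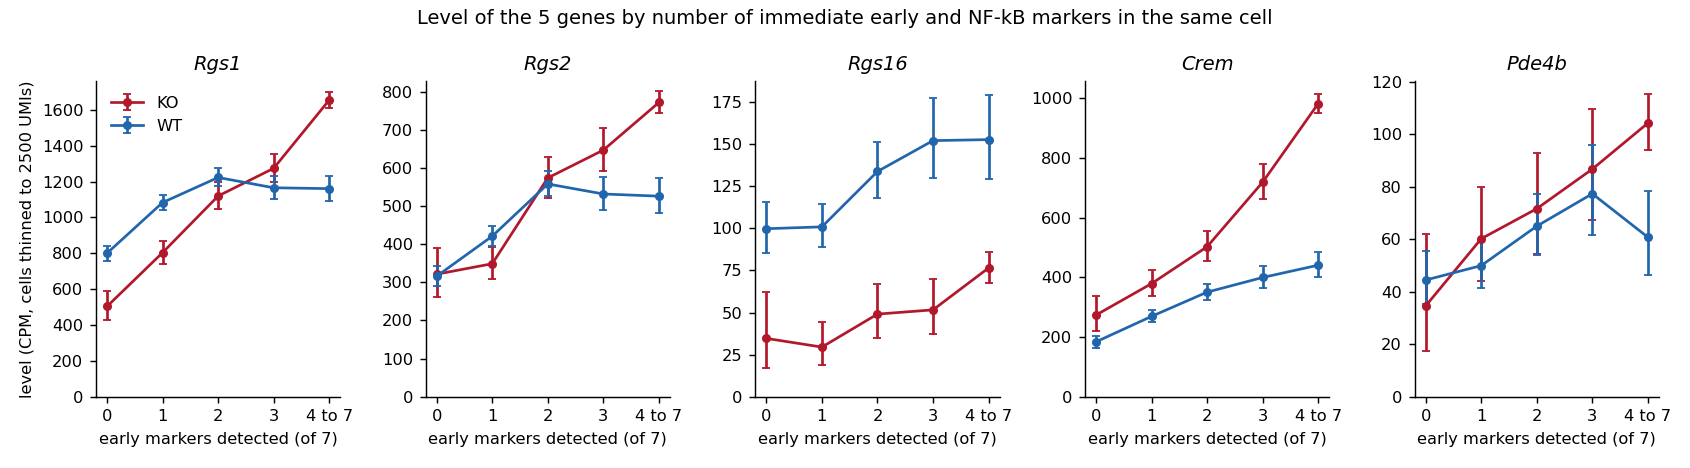
Level (CPM, cells thinned to 2500 UMIs) of the 5 genes in KO and WT NK-like cells against the number of 7 immediate early and NF-kB markers detected in the same cell, with exact 95% Poisson intervals. Rgs16 lies below the WT line at each number in KO cells, while Crem lies above it.

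Of the thinned cells, 4.78% (3.98% to 5.69%) of KO and 9.32% (8.35% to 10.4%) of WT cells held a UMI of none of the 5 genes. Cells with 3 of the 5 made up 35.1% of KO and 24.9% of WT cells, and cells with 4 made up 10.9% (9.73% to 12.2%) and 7.28% (6.41% to 8.22%). All 5 were found in 22 cells of each library. KO cells thus tended to hold more of the 5 genes, up to 4. The 5 were chosen with their differences known, so this is no result separate from the shares of the single genes. Crem was detected in 80.0% of KO cells with and 67.2% of KO cells without a Pde4b UMI, and in 45.7% of WT cells with and 41.3% of WT cells without one. Rgs2 was detected in 66.4% of KO cells with and 51.6% of KO cells without a Crem UMI, and in 59.8% of WT cells with and 48.5% of WT cells without one. Detection of Crem thus went with that of Rgs2 in both libraries. Between cells with and without Rgs16, detection of the other 4 genes differed by 0.573 points (Pde4b) to 7.59 points (Rgs2) in KO cells, and by 1.40 (Pde4b) to 9.61 points (Rgs2) in WT cells. Rgs2 was detected in 68.7% of KO cells with and 61.1% of KO cells without Rgs16, and in 61.1% of WT cells with and 51.5% of WT cells without it. Crem was detected in 70.3% of KO cells with and 69.4% of KO cells without Rgs16, and in 46.1% of WT cells with and 41.0% of WT cells without it. Pde4b and Rgs2 had the smallest difference in KO cells, with Rgs2 in 61.7% of cells with and 61.9% of cells without Pde4b. A cell that captures more of its RNA at equal UMIs was not separated from one that expresses more of these genes.

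Across 17 sums of cells (9 clusters by library, leaving out KO sub-cluster 6 with its 28 cells), the log2(CPM + 1) profiles of Crem and Rgs2 had a Pearson r of 0.87, and those of Crem and Pde4b 0.79. In the KO library alone these were 0.92 and 0.83, and in the WT library alone 0.83 and 0.73. Rgs1 had 0.64 with Rgs2 and 0.57 with Crem over both libraries, 0.801 and 0.75 in the KO library alone, and 0.28 and 0.30 in the WT library alone. Rgs16 had 0.31 with Rgs1 over both libraries, 0.55 in KO sums alone and 0.44 in WT sums alone. In the WT library Rgs16 was thus the gene of the other 4 with the highest r to Rgs1, but Pde4b was close to it at 0.42. Rgs16 had -0.16 with Rgs2, -0.16 with Crem and -0.26 with Pde4b over both libraries, but the T-like KO sum among these points rests on 1 Rgs16 UMI. Without the T-like cluster, an alternative chosen after seeing the data, these became 0.15, 0.049 and 0.066, and 0.49 with Rgs1. The sign of r between Rgs16 and Rgs2, Crem or Pde4b therefore turned with 1 cluster. These values are descriptions over sums that share libraries, depth and the clustering. Among 7515 genes, the 5 most like Crem were Tgif1 (r = 0.97), Fosl2, Skil, Vps37b and P2ry10, which encode a homeobox repressor, an AP-1 subunit, a SMAD corepressor, an endosomal sorting protein and a G protein-coupled receptor. Those most like Rgs2 were Clk1 (0.92), Cebpb, Cxcr4, Sertad1 and Pnrc1, those most like Pde4b included Arap2 (0.89), Smad2, Nrip1 and Akap13, and those most like Rgs1 were Hexim1 (0.80), Kpna1, Sde2, Rnf113a2 and Osm. Those most like Rgs16 were Eps15l1 (0.88), Ehd4, Slmo2, Setd6 and Med22. Without the T-like cluster 4 of the 5 genes named for Crem remained among its top 5, 3 for Rgs2, 2 for Pde4b, 1 for Rgs1 and 0 for Rgs16. In the KO library alone 2 remained for Crem and 0 for Rgs1, Rgs2, Rgs16 and Pde4b. In the WT library alone 4 remained for Crem, 1 for Rgs2 and 0 for Rgs1, Rgs16 and Pde4b. The genes named thus changed with the library for each of the 5 genes, least for Crem. Of the 50 genes most like Crem, 28 were among the 50 most like Rgs2 and 15 among the 50 most like Pde4b, against 22 and 22 in the KO library alone and 10 and 5 in the WT library alone.

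Of 160 listed genes in the tables, 102 had at least 50 UMIs in NK-like cells. Of these, 21 (20.6%) passed 1.5-fold upward and 3 (2.94%) downward in KO cells, against 7.03% and 4.41% of all genes, and their median log2 ratio was 0.20 against 0.044. The lists were chosen with earlier results known, and 9 of the 21 came from the 14 measured genes known as CREB targets. Among the 6 other RGS genes measured, Rgs18 (0.65) was past 1.5-fold, whereas Rgs14 had 27.3 CPM in KO and 22.2 CPM in WT cells and Rgs19 had 48.3 and 54.3 CPM. The median of this list was -0.01.

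Of 18 measured G protein subunit genes, 1 was past 1.5-fold upward, a share near the 7.03% of all genes, and the median log2 ratio was 0.07 against 0.044 over all genes. It was the gamma subunit gene Gng10 (73 KO and 61 WT UMIs, 5.97 against 3.29 CPM). Gna13, which encodes a G protein alpha subunit, had 96.0 CPM in KO and 69.8 CPM in WT cells. The adenylyl cyclase genes measured, Adcy7 (40.4 CPM in KO and 34.8 CPM in WT cells) and Adcy3 (13.4 and 13.3 CPM), were both within 1.5-fold.

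Of 9 Gs-coupled receptor genes, the beta-1 adrenergic receptor gene Adrb1 was lower in KO cells, with 49 KO and 179 WT UMIs, 4.01 against 9.67 CPM, a log2 ratio of -1.09 (-1.76 to -0.81). Calcrl (0.62), which encodes a receptor for CGRP and adrenomedullin, and Vipr2 (0.73, 30 KO and 20 WT UMIs), a receptor for vasoactive intestinal peptide, were past 1.5-fold higher. The prostaglandin E2 receptor gene Ptger4 had 62.5 CPM in KO and 45.6 CPM in WT cells. Of 11 Gi-coupled receptor genes, Cxcr4 (149 CPM in KO and 61.4 CPM in WT cells, log2 ratio 1.27, 1.17 to 1.39) and Ccr7 (43.4 CPM in KO and 25.7 CPM in WT cells, 0.73) were past 1.5-fold. Cxcr4 and Ccr7 also led sub-clusters 2 and 1. S1pr1 had a ratio of 0.48 and Cx3cr1 of -0.48. Beside the counts of both receptor lists, 7.03% of all genes passed 1.5-fold upward and 4.41% downward.

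Of 12 other phosphodiesterase genes, Pde8a (0.61), Pde4d (0.60) and Pde10a (1.40, 48 KO and 16 WT UMIs) were past 1.5-fold higher and none was lower, with a median of 0.38. With 7.03% of all genes past 1.5-fold upward and 4.41% downward, the absence of lower genes among 12 says little. Pde2a had 127 CPM in KO and 88.2 CPM in WT cells, and Pde3b had 55.0 CPM in KO and 40.2 CPM in WT cells. Of the 13 measured genes for protein kinase A, Epac and their anchoring proteins, Pkib (0.91), a protein kinase A inhibitor, and Akap10 (0.63), an anchoring protein, were past 1.5-fold higher, with a median of 0.15. Among 11 CREB factors and cofactors only Crtc2 (11.6 CPM in KO and 7.40 CPM in WT cells, 0.59), a CREB coactivator, was past 1.5-fold. That share was near the 7.03% of all genes. Creb1 had 51.2 CPM in KO and 36.7 CPM in WT cells, and Crebbp had 52.9 CPM in KO and 36.8 CPM in WT cells. The Crem log2 ratio of 1.31 was thus above that of each gene in this list. None of the 6 measured genes for receptor kinases and arrestins, which end receptor signalling, was past 1.5-fold, and Grk6 had 125 CPM in KO and 93.9 CPM in WT cells. The symbols Grk2 and Grk3 were listed under the older names Adrbk1 and Adrbk2.

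Of the 14 measured genes known as CREB targets, 9 were at least 1.5-fold higher and 2 lower in KO cells, with a median log2 ratio of 0.94. Over all genes, 7.03% passed 1.5-fold upward and 4.41% downward. Areg, which encodes the growth factor amphiregulin, had 172 KO and 27 WT UMIs, 14.1 against 1.46 CPM. The orphan nuclear receptor gene Nr4a1 had 1087 CPM in KO and 220 CPM in WT cells, Nr4a3 had 93.7 CPM in KO and 36.6 CPM in WT cells, and the antiproliferative gene Btg2 had 1283 CPM in KO and 456 CPM in WT cells. The 2 lower genes were the AP-1 genes Fos (392 CPM in KO and 696 CPM in WT cells) and Fosb (136 CPM in KO and 211 CPM in WT cells). Genes of this list thus did not share a direction. Of its 15 genes, 6 are also among 20 genes known to respond to tissue handling, and Nr4a1 is 1 of the 7 early markers. In the handling list 6 genes were past 1.5-fold higher, 5 were past 1.5-fold lower and the median was -0.003, with Hspa1a at 384 CPM in KO and 963 CPM in WT cells and Zfp36 at 345 CPM in KO and 149 CPM in WT cells. The part of handling in the differences of the 5 genes was not tested. Pde10a, Vipr2, Fos and Fosb, and Junb where it is plotted, were chosen after their values were seen.

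**Figure D5:**
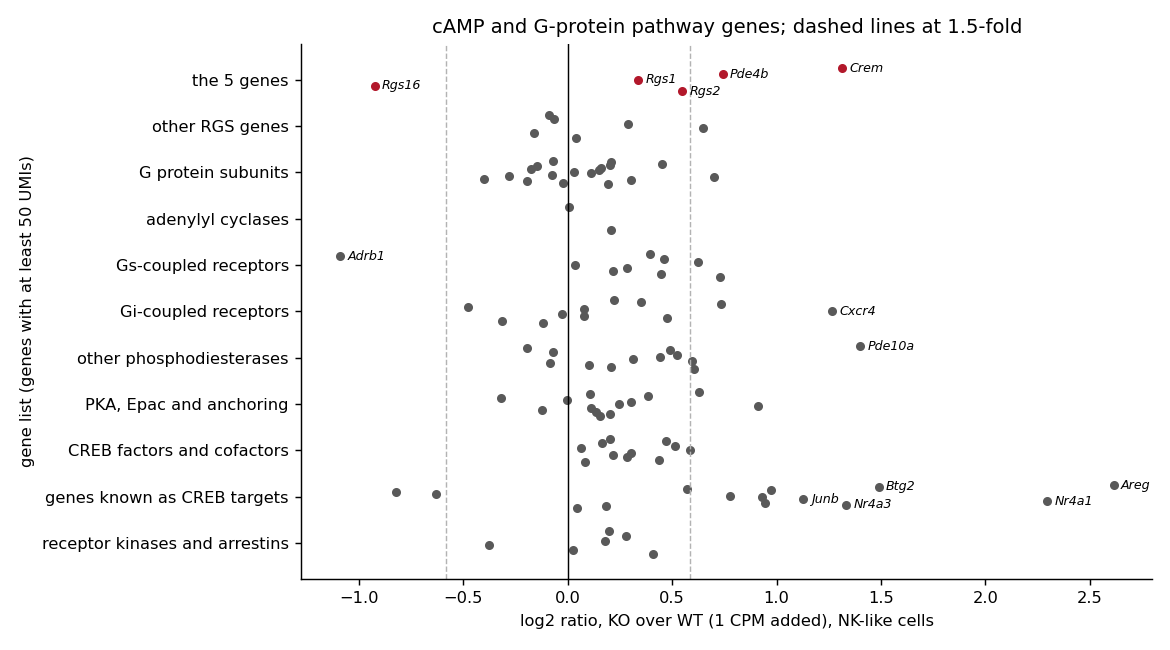
Log2 ratio of KO over WT (1 CPM added) in NK-like cells for the 5 genes (red) and for the listed pathway genes with at least 50 UMIs (grey), 1 point per gene, with dashed lines at 1.5-fold. Most grey points lie within the lines, and the genes known as CREB targets reach 2.62 for Areg.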

How the data were processed

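The authors' deposited tables hold UMI counts, whole numbers without normalization, for each gene and barcode. Their processing notes list Seurat, the mm10 build and Cell Ranger 2.0.2, with no role. The sources used here do not give the annotation, the cell calling or any doublet removal.

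Kept cells of both libraries went into 1 clustering with leidenalg 0.10.2 in scanpy 1.11.5 (counts per 10000, log1p, 2000 variable genes without the 5 genes described, 30 principal components, 15 neighbours, resolution 0.8, no integration). A cluster was named where at least 3 of its top 10 genes by fold were markers of 1 class, and otherwise by the class whose markers were, on average, detected in most of its cells. The cluster led by Cd74 and Tmem176b met this rule for ILC markers, but is called by its leading genes because its NK markers summed to more than its ILC markers. In the T-like cluster the NK markers likewise summed to more than the T cell markers. Its label rests on the T cell markers among its top 10 genes. Sub-clusters are given by number. Sub-clusters of NK-like cells used resolution 0.6. Scrublet marked 0 cells, so its calls were not relied on and doublets were kept.

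Each genotype was 1 sample, so no test was made. UMIs were summed per library and scaled to CPM. Ratios are log2((KO CPM + 1) / (WT CPM + 1)), which understates the change of low genes. The exact conditional binomial 95% interval uses the counts alone and can lie further from 0 for sparse genes. Sums have exact Poisson and shares exact Clopper-Pearson intervals (scipy 1.17.1). Intervals of share differences combine the limits of both shares, and those of ratios weighted to the WT make-up use a normal approximation. Neither of these is exact. All these intervals take UMIs or cells as independent. The ratio and its interval were also run on simulated Poisson counts, the model that the interval assumes. That run checks the calculation and cannot show whether the intervals are wide enough for UMIs spread unevenly over cells. Sequences came from RefSeq (GRCm38.p6) and positions from GENCODE M21.

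The genes, lists and markers were chosen with earlier results of these data known. Named from each list were the 4 genes or fewer whose absolute ratio was largest among those with 100 UMIs or more, and for each of the 5 genes the 5 others with the highest r, of which some items are not reported here. Alternatives changed the scaling, the cell filters, the added CPM, the clustering, the thinning and the fold.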

Additional observations from a re-analysis of the deposited data

Results flagged for a closer look

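The log2 ratio of Rgs1 was 0.88 in sub-cluster 2 (led by Ier5l and Vegfa) and -0.42 in sub-cluster 5 (led by Cd74 and Ccdc184), opposite directions of the same contrast in different sub-clusters. Sub-cluster 5 had 3 ILC markers and no NK marker among its top 10 genes. In sub-cluster 0, which had none of either, the log2 ratio of Rgs1 was -0.16 (-0.24 to -0.09). The log2 ratio of Rgs2 was 0.61 in sub-cluster 2 and -0.26 in sub-cluster 1 (led by Emb and Ndrg1). All these counting intervals leave out 0. The differences between sub-clusters were not tested, since each genotype had 1 library.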

How the results depend on the processing

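Of 161 alternative values, 121 stayed within the spread of the value reported, 30 moved beyond it and 10 changed sign. Scaling by size factors, which shifts all log2 ratios by -0.05, gave 0.29 for Rgs1, 0.50 for Rgs2 and 1.27 for Crem, and leaving mitochondrial and ribosomal protein genes out of the total gave 0.29 for Rgs1 and 0.50 for Rgs2. All barcodes without a filter gave -0.80 for Rgs16 and 1.25 for Crem, and all kept cells gave 0.37 for Rgs1, -0.80 for Rgs16 and 1.26 for Crem. Without cells with 2 or more cycling marker UMIs, Crem had 1.24 and Pde4b 0.60. The mean over cells gave 0.50 for Rgs2. Clustering with the 5 genes among the variable genes (adjusted Rand index 0.52 with the clustering used) left 2731 KO and 3019 WT NK-like cells and gave -0.70 for Rgs16 and 1.27 for Crem. Weighting to the WT distribution of early marker numbers, chosen after seeing the data, gave -0.14 for Rgs1, 0.084 for Rgs2, -1.45 for Rgs16, 0.70 for Crem and 0.20 for Pde4b. Without the 427 KO and 533 WT cells of the cluster of the class with more ILC than NK markers among its top 10 genes (1 and 0), also chosen after seeing the data, Rgs1 had 0.37 and Rgs2 0.61. Over these 15 alternatives, that without sub-cluster 5 included, the log2 ratio lay between -0.14 and 0.37 for Rgs1, 0.08 and 0.61 for Rgs2, -1.45 and -0.70 for Rgs16, 0.70 and 1.33 for Crem, and 0.20 and 0.76 for Pde4b. Weighted to the WT make-up at resolution 1.0, Rgs1 had 0.040 and Rgs2 0.028, against values below 0 at resolution 0.6. The KO minus WT share of cells with a UMI, in percentage points, was 4.23 for Rgs1, -5.47 for Rgs16 and 23.7 for Crem at 1500 UMIs, and -0.137 for Rgs1, 1.94 for Rgs2, -13.6 for Rgs16 and 18.5 for Crem without thinning. At 2-fold, 7 pathway genes were higher and 1 was lower in KO cells. The r of Rgs16 with Eps15l1 was 0.48 in the WT library alone. The r of Rgs16 changed sign to 0.0048 with Rgs2 and 0.061 with Crem in the KO library alone, to 0.31 with Pde4b in the WT library alone, and to 0.15 with Rgs2, 0.049 with Crem and 0.066 with Pde4b without the T-like cluster. The cause of these shifts was not tested. No paired analysis was possible because each genotype had 1 library.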
